A study of Mus musculus with 20 samples.

Results

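The genes described here carry a systematic name in place of a functional one, or are long noncoding RNAs with a name of their own. They were taken from 3 deposited lists of candidate m6A sites by the symbol in each row: predicted genes (Gm and a number), clone names ending in Rik, snoRNA and miRNA host names (starting with Snhg or ending in hg), opposite-strand names ending in os, and Tug1, Meg3, Malat1, Neat1, Miat, Rian, Mirg and Norad, with Oip5os1 left out. The rule found 116 of the 3731 genes with a listed site, holding 550 of the 25978 sites in any list. Neat1, Mirg and the symbol Norad had 0 rows, but Norad was present under its clone name, 2900097C17Rik, which the RefSeq gene table (GRCm38.p6) gives as a synonym. The label of a noncoding group did not hold for all of them: RefSeq types 48 of the 116 as protein-coding, with 199 sites, and 33 as noncoding (31 lncRNAs, 1 antisense RNA and 1 transcribed pseudogene), and 35 genes with 80 sites had no match in that table. They are therefore called systematically named and long noncoding genes, and the type is given where it is known.

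The lists come from bulk poly(A) RNA of mouse cerebellum, hippocampus and whole cortex. Mice carried a tamoxifen-inducible APOBEC1-YTH transgene and received 20 mg/kg tamoxifen by intraperitoneal injection at 24 h intervals for 5 days, with tissue taken 7 days after the last dose. The labels give 4 APOBEC1-YTH libraries per region with the same 4 animal numbers, and as background 3 cerebellar, 2 hippocampal and 3 cortical libraries from tamoxifen-treated mice with APOBEC1-YTHmut. The sources used here do not name the promoter of the transgene, the cells it reached, or the strain and age of the mice.

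N6-methyladenosine (m6A) is a modified adenosine that the METTL3 and METTL14 complex writes into mRNAs and long noncoding RNAs, most often where the adenosine is followed by a cytosine, and with a preference for the region near the stop codon and the last exon. The YTH domain binds m6A, and the APOBEC1 fused to it deaminates a neighbouring cytosine, so that a methylated adenosine is read as a C-to-U change. In YTHmut the domain carries a mutation that impairs m6A binding. In neurons, long noncoding RNAs act in the nucleus (Malat1, Miat, Meg3), sequester proteins (Norad) or small RNAs (the circular RNA Cdr1as), or are precursors of small RNAs (Rian, Snhg14).

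Each list has 1 value per site, a fraction read here as the share of edited reads in the APOBEC1-YTH libraries of a region combined, and called the editing level. The lists hold no read depth, no value per animal and no APOBEC1-YTHmut value, so the spread between animals is unknown and no test was made. A site missing from a list may be unmethylated, below the detection limit of the authors or in a transcript that is scarce there, and these cases cannot be told apart. In bulk tissue, fewer cells of a type and less RNA per cell cannot be told apart either. Intervals given below cover the number of sites counted and nothing else. Genes known from the region were listed accordingly: 7 of 9 cerebellar marker genes had sites, with 194 sites in cerebellum, 3 in hippocampus and 10 in cortex, 4 of 6 hippocampal markers had 1, 40 and 9 sites in the same order, and 4 of 6 cortical markers had 0, 1 and 14. Pcp2, Gabra6, Prox1, Neurod1, Rorb and Fezf2 had no site in any list, and expression itself was not measured here.

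The letters at the listed positions could be read where a position fell inside one of the RefSeq promoter windows (250 bases before to 50 after a gene's start), which was the case for 63 positions in 34 genes. The base was a C in 63 of 63 and the base before it an A in 63 of 63, whereas 18.2% of the Cs in all 32851 windows, read on both strands, follow an A. The base before that A was G at 37 positions, A at 26 and C or T at 0. The dinucleotide AC itself occurs on either strand in 100% of the windows. The sources used here do not state whether site calling required these letters. The 63 of 63 may therefore have been fixed by the calling, and it is no test of the sites. Of the 4 such positions in the genes described here, 2 belong to Cdr1os, the transcript opposite the protein-coding gene Cdr1, for which RefSeq also gives the name Cdr1as. They are printed here because the neighbouring letters are repeats of the kind for which this RNA is known. The window is the one of Cdr1, read on the Cdr1os strand (chrX:61185509-61185808, + strand, GRCm38.p6), and capitals mark the A and the edited C.

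Cdr1os window: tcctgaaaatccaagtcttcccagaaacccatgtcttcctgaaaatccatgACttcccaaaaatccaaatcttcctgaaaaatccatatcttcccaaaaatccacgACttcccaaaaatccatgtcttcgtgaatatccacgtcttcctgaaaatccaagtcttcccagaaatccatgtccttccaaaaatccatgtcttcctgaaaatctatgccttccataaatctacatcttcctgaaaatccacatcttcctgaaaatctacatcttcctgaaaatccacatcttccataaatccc
mmu-miR-7a-5p: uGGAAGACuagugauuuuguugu

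The first site (position 61185561) was listed at 2.68% in cerebellum and 3.45% in cortex, and the second (61185616) at 1.75% in cerebellum; hippocampus listed neither. They lie 55 nt apart within an identical run of 17 letters. Cdr1as is known for its many binding sites for miR-7, whose seed (bases 2 to 8) is in capitals in the second sequence, from RefSeq. The letters complementary to that seed, GTCTTCC, occur 5 times on the Cdr1os strand of the window and 0 times on the other strand. At least 1 copy on either strand is found in 5.32% of the 32851 windows, and 1 window holds 5 or more. The copy nearest to a listed site starts 20 nt from it. These are matches of letters, not measured binding sites, and linear and circular forms of the RNA are not told apart by the lists. The lists come from poly(A) RNA, so how far a circular RNA was sampled at all is unknown.

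Cdr1os had 6 sites in all, 5 in cerebellum, 0 in hippocampus and 3 in cortex. The highest were at position 61183338 with 9.26% in cerebellum and at 61183303 with 5.97% in cerebellum and 3.03% in cortex. Of the 6, 3 lie opposite the Cdr1 gene and 3, those of the window among them, just before its start. All 6 are between 43843 and 46650 nt beyond the 3′ end of the Cdr1os gene in the RefSeq table (chromosome X, 61116378 to 61139460). Cdr1 had no site under its own symbol.

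The other 2 positions with readable letters belong to predicted genes on chromosome 11. They are shown because each was also among the sites whose gene assignment overlaps a protein-coding gene: the Gm21988 site (position 70238152) lies within Rnasek, and the Gm45606 site (75531479) opposite the start of Slc43a2, a neutral amino acid transporter. Both are read on the minus strand of GRCm38.p6, at chr11:70238138-70238164 and chr11:75531465-75531493, with the A and the edited C in capitals.

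Gm21988: ccccgttctgaACtacaataaaaagaa
Gm45606: tctacccagttaaACtggagtgcccctcg

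The Gm21988 site was listed at 6.32% in cerebellum, 5.68% in hippocampus and 1.75% in cortex, and the Gm45606 site at 5.71% in cortex and in neither other list. In all 4 cases the letter before the edited C was an A on the listed strand, which site calling may have required.

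Across the regions, these genes had 167 sites in 52 genes in cerebellum, 260 sites in 61 genes in hippocampus and 432 sites in 97 genes in cortex. They made up 1.47% (95% exact binomial interval 1.25 to 1.70) of the 11391 cerebellar sites, 1.93% (1.71 to 2.18) of the 13461 hippocampal sites and 2.42% (2.20 to 2.65) of the 17878 cortical sites. Of the 116 genes, 44.8% were listed in cerebellum, against 59.7% of all 3731 genes, 52.6% were listed in hippocampus, against 68.3%, and 83.6% in cortex, against 84.8%. The share of these genes with a site was thus near that of all genes in cortex and below it in the other regions. In all 3 regions 30 genes were listed, 25.9% of the members against 43.1% of all genes. In cortex alone 33 genes were listed (28.4% against 17.4%), in hippocampus alone 7 (6.03% against 5.23%) and in cerebellum alone 12 (10.3% against 7.75%). Hippocampus and cortex, but not cerebellum, listed 24 (20.7% against 17.7%). Of the 33 genes listed in cortex alone, 25 had 1 site. Of the 30 genes listed everywhere, 2 had 1 site.

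Position by position, 84 of the 550 sites (15.3%, exact interval 12.4 to 18.6) were listed in all 3 regions, against 19.0% of all sites, and 213 (38.7%) in cortex alone, against 26.2%. Without Norad, which held 25 of the 84, the share listed everywhere was 11.7%. Among the members that RefSeq types as noncoding it was 18.8%, near that of all sites. Norad, with 25 of its 44 positions in every list, is among them, and the noncoding share without Norad was not computed. Among sites of a pair of regions, 103 (18.7%, against 17.1% of all sites) were common to hippocampus and cortex but not cerebellum, 32 (5.82%, against 6.49%) to cerebellum and cortex but not hippocampus, and 6 (1.09%, against 2.87%) to cerebellum and hippocampus but not cortex. Of the cerebellar sites 53.9% were also hippocampal (49.9% over all genes) and 69.5% also cortical (58.2%), and of the hippocampal sites 71.9% were also cortical (69.7%).

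The median editing level was 4.17% (interval 3.31 to 5.06) in cerebellum, 3.76% (3.38 to 4.15) in hippocampus and 3.67% (3.31 to 4.03) in cortex. Over all sites the medians were 3.36%, 2.82% and 2.91% in the same order of regions. A level of 10% or more was reached at 26 of the cerebellar sites (15.6%, against 8.99% of all sites), 28 of the hippocampal (10.8%, against 6.14%) and 42 of the cortical (9.72%, against 6.54%). Sites lay within 50 nt of another site of the same gene at 49.7% of cerebellar, 48.5% of hippocampal and 52.5% of cortical positions, against 53.3%, 54.7% and 55.1% over all genes. The direction was the other way for the members that RefSeq types as noncoding, with 63.5%, 60.1% and 62.5%. A few genes with many sites weigh on these shares, since a gene with 1 site cannot count. Norad had 31 and B630019K06Rik 17 of the 85 cerebellar sites of the noncoding members.

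The 11 genes with 10 or more sites in a list held 264 sites, 48% of the total, whereas 56 genes had 1 site. Within a list, genes with 1 site were 53.8% of those listed in cerebellum, 41.0% in hippocampus and 46.4% in cortex, against 35.9%, 35.2% and 33.7% over all genes. By kind, the 8 named long noncoding RNAs had 72 sites in any list and the 18 clone-named noncoding genes 148. The 39 clone-named protein-coding genes had 159, the 42 predicted (Gm) genes 149, the 4 clone names without a match 12 and the 2 opposite-strand transcripts 7. The letters of the rule also caught 3 protein-coding genes whose names merely end in os or os and a number, with 1 site each: Sos2, a Ras guanine nucleotide exchange factor, at 6.45% in cortex, Uros, uroporphyrinogen III synthase of haem synthesis, at 4.84% in cortex, and Micos10, a subunit of the mitochondrial MICOS complex, at 7.32% in hippocampus and 11.8% in cortex. Among the kinds with over 10 genes, median levels were highest in the clone-named noncoding genes, with 5.26% in cerebellum, 5.47% in hippocampus and 4.69% in cortex, and lowest in the clone-named protein-coding genes in cerebellum (3.24%) and cortex (3.03%) and in the predicted genes in hippocampus (2.97%). These medians count sites, and few genes held many of the clone-named noncoding ones. In cerebellum 4 of the 18 genes were listed, with 55 sites, 31 in Norad and 17 in B630019K06Rik. Norad and 2900052N01Rik had 36 and 25 of the 82 sites in hippocampus, and 35 and 30 of the 125 in cortex.

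**Figure D1:**
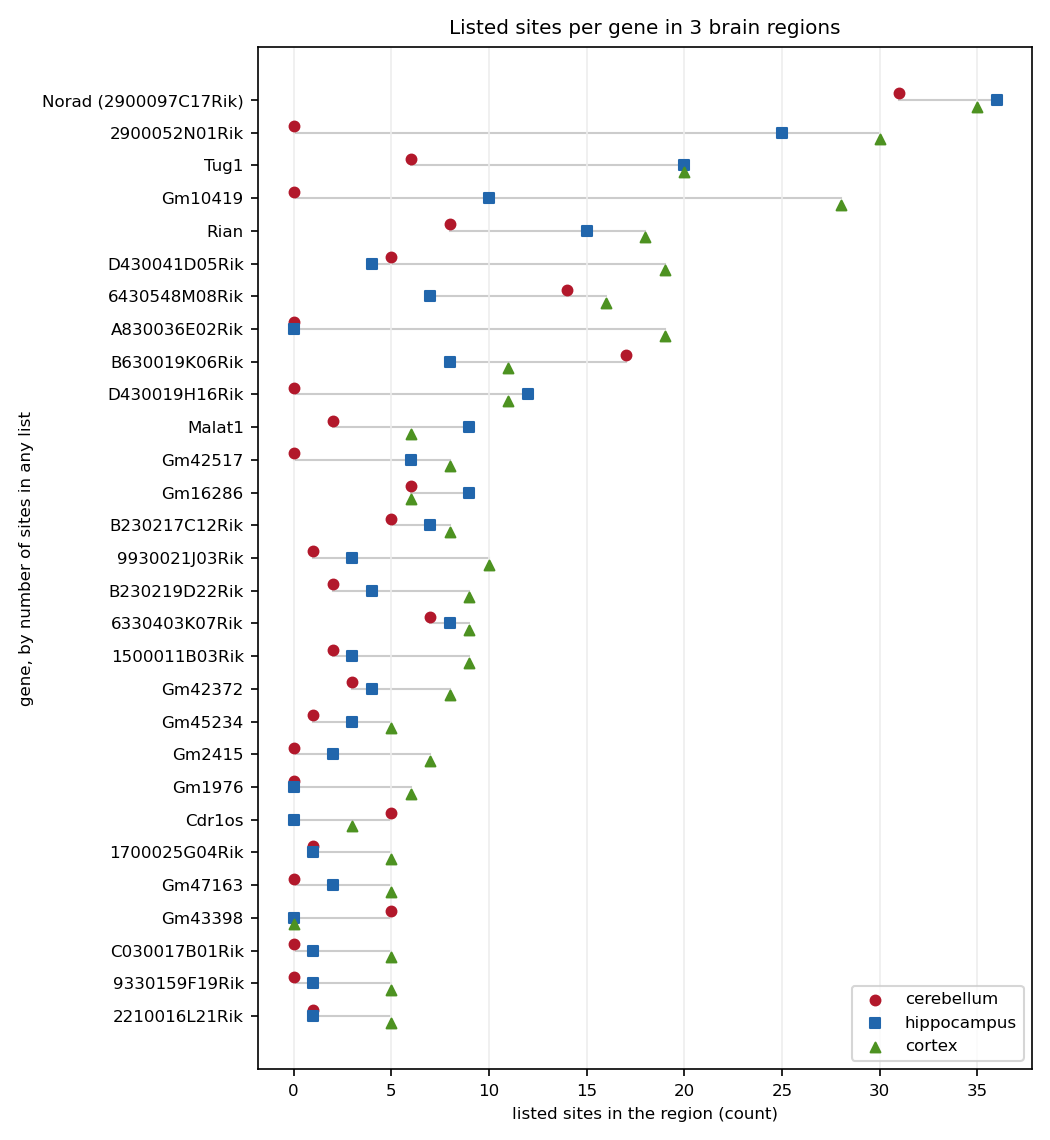
Number of listed sites (horizontal axis, count) of the 29 genes with 5 or more sites in at least 1 region; circles are cerebellum, squares hippocampus and triangles cortex, with a grey line over their range, and genes run from most to fewest sites in any list. Norad is high in every region (31, 36 and 35 sites), whereas 2900052N01Rik has 0, 25 and 30 and A830036E02Rik 0, 0 and 19.

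Norad, a long noncoding RNA that binds and sequesters Pumilio proteins and is needed for genome stability, carried more sites than any other member. Its gene lies on the minus strand of chromosome 2, 156388063 to 156392979, and is 4917 nt long. It had 31 sites in cerebellum, 36 in hippocampus and 35 in cortex, 44 positions in all, of which 25 were in every list. The median level of its sites was 5.37% in cerebellum, 3.76% in hippocampus and 3.47% in cortex. The position most strongly edited in cerebellum and cortex, 4189 nt before the 3′ end, had 23.9% in cerebellum, 13.8% in hippocampus and 17.95% in cortex. A second strong position at 2449 nt, the highest in hippocampus, had 18.2%, 16.3% and 9.59%. Another at 3400 nt had 17.4%, 14.4% and 14.2%, each in the order cerebellum, hippocampus, cortex.

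At positions common to both lists, Norad was edited at a mean of 8.43% in cerebellum and 5.21% in cortex (26 positions), with a median log2 ratio of 0.59 and a higher level in cerebellum at 20 of 26. Against hippocampus the means were 8.15% in cerebellum and 5.73% in hippocampus (27 positions), with 19 higher in cerebellum and a median log2 ratio of 0.28. Between the forebrain regions the means were 5.70% in hippocampus and 4.83% in cortex (30 positions), with 22 higher in hippocampus and a median log2 ratio of 0.28. At common positions over all genes, the median log2 ratio was 0.06 for cerebellum over cortex, -0.02 for hippocampus over cortex and 0.04 for cerebellum over hippocampus. Over all listed sites, common or not, the cerebellar median exceeded that of cortex by 0.21 and that of hippocampus by 0.25 on the log2 scale. With the lists scaled by these whole-list medians, 18 of 26 Norad positions were still higher in cerebellum than in cortex (median log2 ratio 0.38), but 14 of 27 were higher than in hippocampus (0.02). At positions listed everywhere, cerebellum had the highest level of the 3 at 18 of the 25 in Norad, and at 37.4% of the 4942 such positions over all genes.

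The difference was uneven along the transcript. Between 1000 and 2000 nt before the 3′ end lay 6 positions in cerebellum, 4 in hippocampus and 3 in cortex, with mean levels of 7.34%, 2.86% and 2.62%. The position at 1852 nt had 17.2% in cerebellum, 4.06% in hippocampus and 2.89% in cortex. That at 1772 nt had 10.9%, 2.87% and 2.43%, and that at 1794 nt 8.68%, 3.45% and 2.54%. These levels were several times higher in cerebellum, while hippocampus and cortex were close to each other. The largest cerebellar excess was at 2397 nt, with 11.7% in cerebellum, 2.07% in hippocampus and 1.2% in cortex, a log2 ratio of 3.28 over cortex and 2.50 over hippocampus. Between 3000 and 4000 nt, by contrast, each list had 10 positions, with means of 7.70% in cerebellum, 7.48% in hippocampus and 6.64% in cortex. In that stretch some positions had the opposite order: at 3958 nt the level was 6.57% in cerebellum, 12.4% in hippocampus and 13.7% in cortex, and at 3381 nt 1.73%, 6% and 3.47%. The site at 4214 nt separated the forebrain regions most, with 4.43% in hippocampus and 1.26% in cortex (5.26% in cerebellum). Toward the 5′ end, the positions from 4288 to 4666 nt were listed in hippocampus or cortex and not in cerebellum, among them one at 10.4% in cortex alone (4312 nt).

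**Figure D2:**
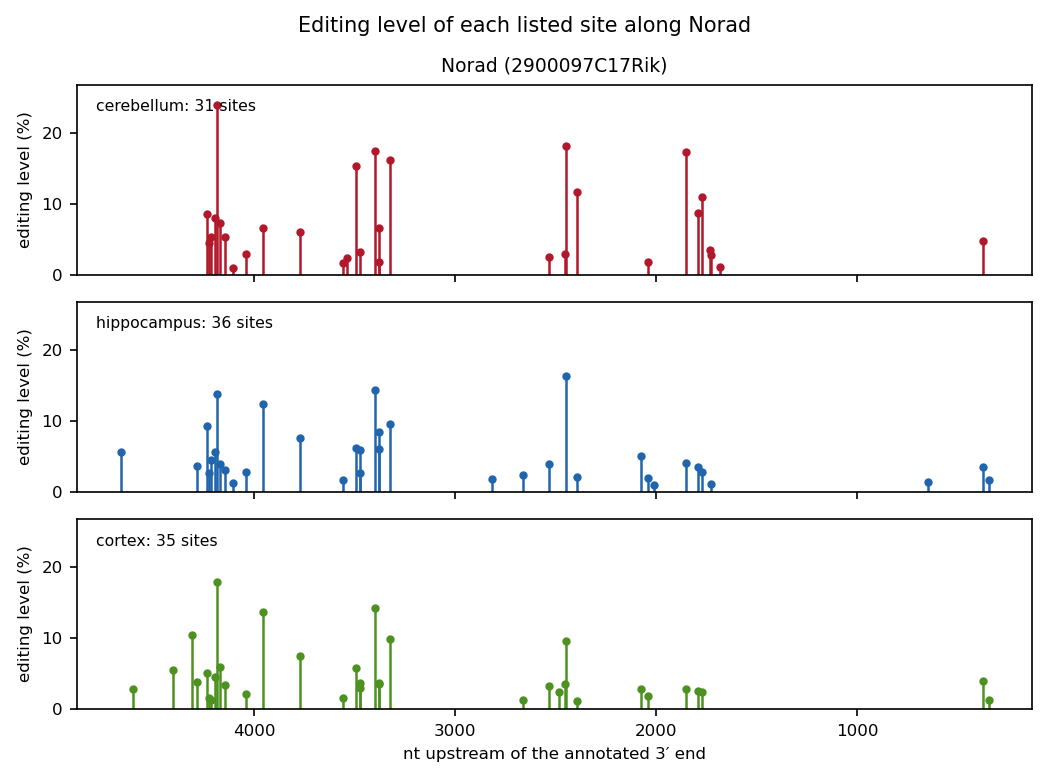
Editing level (percent, vertical axis) of each listed Norad site against its distance upstream of the annotated 3′ end (nt, horizontal axis, 5′ to the left), in cerebellum, hippocampus and cortex from top to bottom. The positions at 1772, 1794 and 1852 nt stand at 8.68% to 17.2% in cerebellum and below 5% in the other panels, while the strong positions at 2449, 3400 and 4189 nt are present in all 3.

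Rian, an imprinted maternally expressed RNA of the Dlk1-Dio3 locus that hosts C/D box snoRNAs and miRNAs, showed the opposite order of regions. It had 8 sites in cerebellum, 15 in hippocampus and 18 in cortex, on the plus strand of chromosome 12 (gene 109603945 to 109661716). Its 7 positions common to all lists had a mean of 3.10% in cerebellum, 5.82% in hippocampus and 6.03% in cortex, and each of the 7 was lowest in cerebellum. The strongest, 609 nt before the 3′ end, had 7.04% in cerebellum, 14.6% in hippocampus and 13.6% in cortex. The largest relative gap was at 689 nt, with 1.5%, 3.93% and 4.91%. The median log2 ratio was -1 over cortex and -0.93 over hippocampus, and -1.21 and -1.19 with the lists scaled. Hippocampus and cortex had equal means at their 13 common positions (4.003% in both), with 6 positions higher in hippocampus and 7 in cortex. Over all genes, cerebellum was lowest of the 3 regions at 38.1% of the positions listed everywhere.

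Of the 21 Rian positions, 13 lay within 1000 nt of the 3′ end. A further 7 formed a block between 15000 and 16000 nt upstream, with 5 in hippocampus (mean 1.77%), 6 in cortex (1.49%) and 0 in cerebellum. The levels of that block, at most 2.89%, were close to the lowest level that the lists contain, which is 1%. Meg3, the neighbouring imprinted RNA of the same locus, had few sites: 2 in cerebellum, 2 in hippocampus and 4 in cortex. At 171 nt from its 3′ end the level was 2.60% in cerebellum, 4.15% in hippocampus and 3.73% in cortex, again lowest in cerebellum, and at 12864 nt it was 1.22% in cerebellum and 2.46% in cortex. None of the miRNA hairpins that RefSeq places within these host genes held a site: the nearest were 4827 nt away for Mir770 in Meg3 and 28030 nt for Mir370 in Rian.

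Tug1, taurine up-regulated gene 1, a long noncoding RNA known from the retina, had 6 sites in cerebellum, 20 in hippocampus and 20 in cortex, on the minus strand of chromosome 11 (3639785 to 3648814). Although hippocampus and cortex had equal numbers, 9 positions were common to both and 4 to all 3 lists, out of 32 in any list. The position 1535 nt before the 3′ end had 11.8% in cerebellum, 10.7% in hippocampus and 6.38% in cortex, and that at 7922 nt 13.3%, 9.09% and 6.85%, both highest in cerebellum and lowest in cortex. The position at 2615 nt was highest in hippocampus, with 4.44%, 11.9% and 3.92%. The position at 1061 nt was highest in cortex, with 7.14%, 4.71% and 22.03%, the lowest hippocampus over cortex ratio among these genes (log2 -2.23). The 4 common positions thus had their maximum in different regions. The 5′ part, 3500 to 9000 nt upstream, held 1 site in cerebellum, 3 in hippocampus and 7 in cortex.

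**Figure D3:**
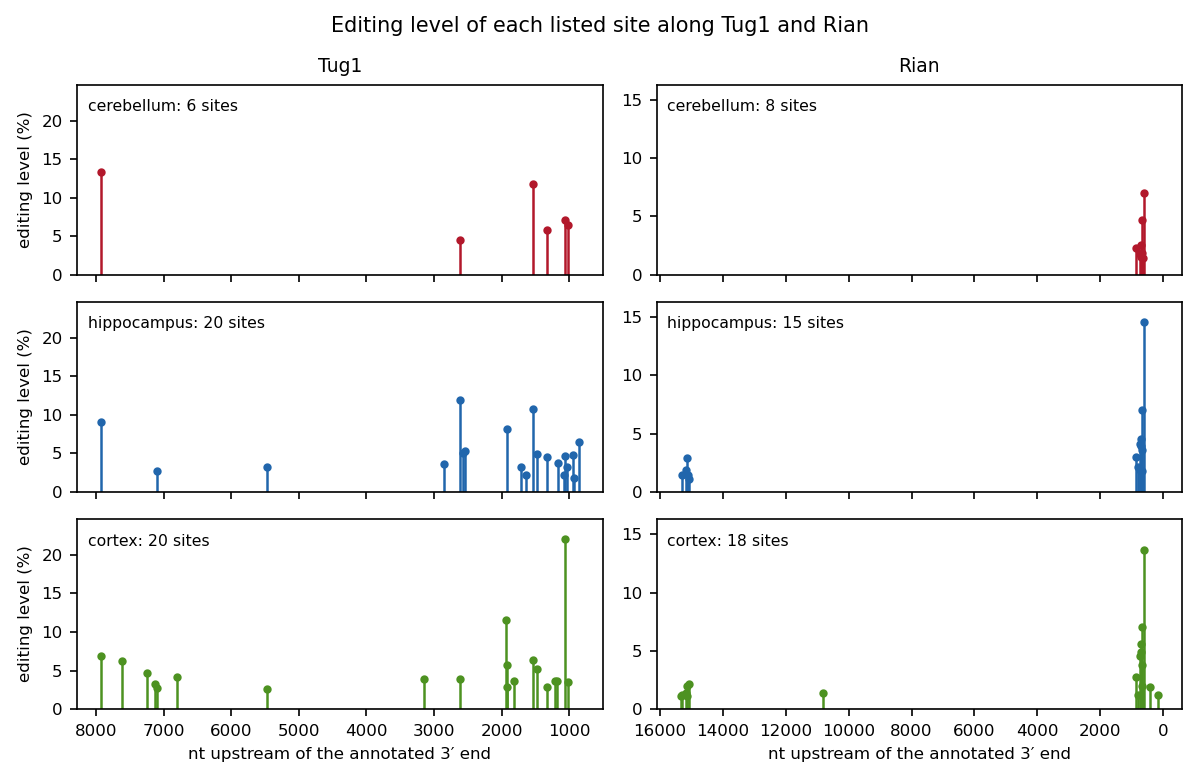
Editing level (percent) of each listed site of Tug1 (left) and Rian (right) against the distance upstream of the annotated 3′ end (nt, 5′ to the left), in cerebellum, hippocampus and cortex from top to bottom. Tug1 has 6, 20 and 20 sites with peaks at different positions; Rian has one cluster near the 3′ end, lower in cerebellum, and a second near 15000 nt in hippocampus and cortex.

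Malat1, the abundant RNA of nuclear speckles, had 2 sites in cerebellum, 9 in hippocampus and 6 in cortex, none above 5.13%. Its 2 positions in every list were at 5784 nt, with 3.31% in cerebellum, 5.13% in hippocampus and 3.10% in cortex, and at 5734 nt, with 2.03%, 2.42% and 1.78%. Both were highest in hippocampus. Miat, a nuclear RNA of neurons also called Gomafu, had 1 position, at 2.80% in hippocampus and 2.55% in cortex. Snhg14, the host of the Snord115 and Snord116 clusters and antisense to Ube3a, had 1 site at 3.28% in cerebellum. The miRNA hosts Mir100hg and Mir9-3hg had 1 site each, at 5.56% and 3.23% in cerebellum, 10399 nt from the nearest hairpin (Mir125b-1) and 26282 nt from Mir9-3. The levels of Malat1, Meg3, Miat and these hosts were thus at most 5.56%, and the 3 hosts Snhg14, Mir100hg and Mir9-3hg were listed in cerebellum and nowhere else.

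Several genes were listed in hippocampus and cortex and had no site in cerebellum. The lncRNA 2900052N01Rik on chromosome 9 (46913603 to 46927366, plus strand) had 25 sites in hippocampus and 30 in cortex, and 22 were common to both. All but 3 of its 33 positions lay between 5000 and 6500 nt before the 3′ end, with mean levels of 9.06% in hippocampus and 9.32% in cortex. The strongest position had 22.2% in hippocampus and 27.5% in cortex, and the next in cortex 14.3% and 26.1%. Over the common positions 9 were higher in hippocampus and 13 in cortex, with a median log2 ratio of -0.12. The 2 forebrain regions thus gave closely similar numbers and levels for a gene of which the cerebellar list had nothing.

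The lncRNA Gm10419 and the protein-coding gene Gm42517, also named Tmem271, are neighbours on opposite strands of chromosome 5 (108367937 to 108374483, plus, and 108365555 to 108367917, minus). Gm10419 had 0 sites in cerebellum, 10 in hippocampus and 28 in cortex, and Gm42517 had 0, 6 and 8. Levels at the 7 common positions of Gm10419 averaged 4.57% in hippocampus and 5.22% in cortex; the largest gap was 3.39% against 10.1%. In Gm42517 the 3 common positions averaged 2.37% in hippocampus and 1.75% in cortex. Both members of the pair were thus absent from the cerebellar list. The protein-coding D430019H16Rik had 0, 12 and 11 sites, and at its 8 common positions means of 3.62% in hippocampus and 2.75% in cortex, with 6 higher in hippocampus, 1 lower and 1 equal.

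**Figure D4:**
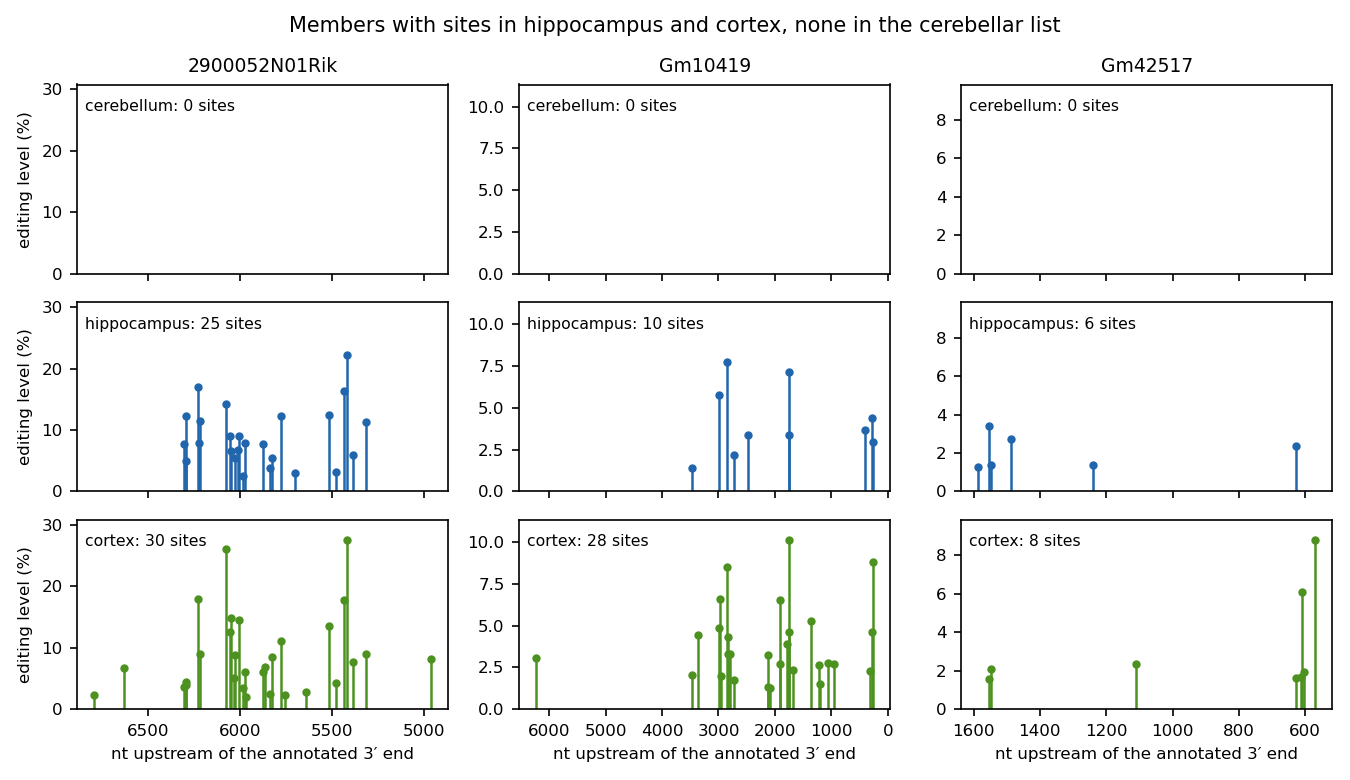
Editing level (percent) of each listed site of 2900052N01Rik, Gm10419 and Gm42517 (left to right) against the distance upstream of the annotated 3′ end (nt, 5′ to the left), in cerebellum, hippocampus and cortex from top to bottom; vertical scales differ between genes. The cerebellar panels are empty; 2900052N01Rik has 25 and 30 sites in hippocampus and cortex, at similar heights.

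Other genes were listed in 1 region. The lncRNA A830036E02Rik on chromosome 11 had 19 cortical sites with levels of 1.49% to 9.09% and none elsewhere. All 19 lay beyond the 3′ end of its RefSeq gene, by 770 to 1971 nt. The lncRNA Gm1976 on chromosome 17 had 6 cortical sites (3.17% to 8.93%) and the protein-coding 1110032F04Rik 2, at 9.38% and 5.71%. In cerebellum alone, Gm43398, which RefSeq does not list, had 5 sites within 742 nt on chromosome 5 at 2.02% to 5.17%, the protein-coding D030056L22Rik 1 site at 8.33% and the lncRNA Gm33320 1 site at 60%. In hippocampus alone, the protein-coding genes 2900026A02Rik, Gm2115 and 3830406C13Rik had 3, 2 and 1 sites, the last at 23.5%. Genes listed in 1 region alone held 16 sites in cerebellum (12 genes), 10 in hippocampus (7 genes) and 62 in cortex (33 genes). Of the 62, 19 were those of A830036E02Rik. Most of these genes had 1 site, namely 11 in cerebellum, 5 in hippocampus and 25 in cortex.

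Among genes with sites in all regions, the transcribed pseudogene B630019K06Rik on chromosome X had more sites in cerebellum than elsewhere: 17 sites there, 8 in hippocampus and 11 in cortex, all within 937 nt of the 3′ end. Its levels were mixed. The site at 720 nt had 27.7% in cerebellum and 7.5% in cortex, and the site at 801 nt 17.8% in cerebellum, 6.76% in hippocampus and 10.1% in cortex. The sites at 653 nt and 559 nt ran the other way, with 3.45%, 8.54% and 9.23%, and with 3.08%, 3.75% and 9.33%. Of 10 positions common to cerebellum and cortex, 5 were higher in cerebellum, and of 7 common to hippocampus and cortex 1 was higher in hippocampus.

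The protein-coding Gm16286 had 6 sites in cerebellum, 9 in hippocampus and 6 in cortex. All 5 positions it had in both cerebellum and hippocampus were more than 2-fold higher in cerebellum, with means of 7.92% and 3.47%, and all 4 in both cerebellum and cortex were higher in cerebellum, with means of 9.11% and 5.55%; these directions held with the lists scaled. Its strongest position had 20% in cerebellum, 8.57% in hippocampus and 12.8% in cortex. The protein-coding 6430548M08Rik had 14, 7 and 16 sites, and its 5 positions in both cerebellum and hippocampus were all lower in cerebellum (2.66% against 3.82% on average). The median log2 ratio of these positions was only -0.11. The widest gap was at 2801 nt, with 4.8% in cerebellum and 9.69% in hippocampus. The lowest cerebellum over cortex ratio of 6430548M08Rik was at 3455 nt, with 1.32% in cerebellum and 4.55% in cortex. Its highest hippocampus over cortex ratio was at 171 nt, with 6.45% and 2.04%. In the protein-coding 6330403K07Rik (7, 8 and 9 sites), position 949 nt had 6.12% in cerebellum, 1.78% in hippocampus and 1.38% in cortex, while the position at 76 nt had 4.88%, 6.82% and 7.14%. The lncRNA B230217C12Rik had 5, 7 and 8 sites, and its strongest position was close in the 3 lists, at 8.89%, 7.48% and 8.46%.

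Further genes had most of their sites in cortex. D430041D05Rik (protein-coding) had 5, 4 and 19 sites in cerebellum, hippocampus and cortex, 9930021J03Rik (protein-coding) 1, 3 and 10, B230219D22Rik (protein-coding) 2, 4 and 9, 1500011B03Rik (lncRNA) 2, 3 and 9, and Gm42372 (protein-coding) 3, 4 and 8. Without a RefSeq match, Gm2415 had 0, 2 and 7, Gm45234 1, 3 and 5, Gm47163 0, 2 and 5 and C030017B01Rik 0, 1 and 5. The protein-coding 1700025G04Rik and 2210016L21Rik (also named Custos) had 1, 1 and 5, and 9330159F19Rik 0, 1 and 5. In 9930021J03Rik the levels were among the higher ones: its cortical median was 11%, and it had sites at 16.7% in cortex and 6.67% in cerebellum at one position and at 4.17% in hippocampus and 10.6% in cortex at another, whereas the position 1594 nt before its 3′ end had 15.7% in hippocampus and 10% in cortex. In Gm2415 the strongest site had 15.7% and was listed in cortex alone. The remaining 64 genes that the naming rule did not pick out had 104 sites, at most 6 each.

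At positions common to a pair of lists, levels were compared as log2 ratios. Cerebellum and cortex shared 116 positions in 35 of these genes, with a median log2 ratio of 0.19 (interval 0.04 to 0.39) and 72 positions (62.1%) higher in cerebellum; over all genes the median at common positions was 0.06, with 52.6% higher. Of the 116, 18 (15.5%) were at least 2-fold higher and 16 (13.8%) at least 2-fold lower in cerebellum, against 15.1% and 12% of the 6627 common positions over all genes. Hippocampus and cortex shared 187 positions in 49 genes, with a median of 0.02 (-0.08 to 0.23), against -0.02 over all genes. Here 18 (9.63%) were at least 2-fold higher and 17 (9.09%) at least 2-fold lower in hippocampus, against 7.37% and 8.17% of 9379. Cerebellum and hippocampus shared 90 positions in 25 genes, with a median of 0.16 (-0.07 to 0.31), against 0.04 over all genes. At 17 of the 90 (18.9%) the level was at least 2-fold higher and at 7 (7.78%) at least 2-fold lower in cerebellum, against 15.2% and 11.4% of 5688. Norad held 6 of the 17 and 1 of the 7. Without Norad the medians were 0.11 for cerebellum over cortex, -0.07 for hippocampus over cortex and 0.03 for cerebellum over hippocampus. With Norad included, the shares past 2-fold were near those of all genes for both pairs with cortex. The median ratios of both pairs with cerebellum, again with Norad, turned slightly negative once the lists were scaled to a common median. The 3 comparisons share their lists pairwise, so their values are given side by side only.

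Among the 4 largest and 4 smallest ratios per pair, those outside Norad, Rian, Tug1, 6430548M08Rik and B630019K06Rik were at the following positions. Over cortex, cerebellum was most above at a site of 1500011B03Rik (7.27% in cerebellum, 1.35% in cortex), of the lncRNA Gm20716 (5.74%, 1.07%) and of the protein-coding C030006K11Rik (26%, 5.13%). Over hippocampus, it was most above at a site of D430041D05Rik (9.52% in cerebellum, 2.41% in hippocampus), of 6330403K07Rik (6.12%, 1.78%) and of Gm45837 (10.9%, 3.55%). Hippocampus was most above cortex at Gm50388 (3.38% in hippocampus, 1.03% in cortex) and Gm21988 (5.68%, 1.75%), and most below it at Gm10419 (3.39%, 10.1%), Gm50364 (3.12%, 8.64%) and 9930021J03Rik (4.17%, 10.6%). The smallest ratios of both pairs with cerebellum all fell in the genes set aside here. Cerebellum was also below cortex in other genes, as at a site of Gm45234 (2.68% in cerebellum, 7.79% in cortex) and of 9930021J03Rik (6.67%, 16.67%). With 1 value per region and no depth, the error of such single ratios is unknown.

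**Figure D5:**
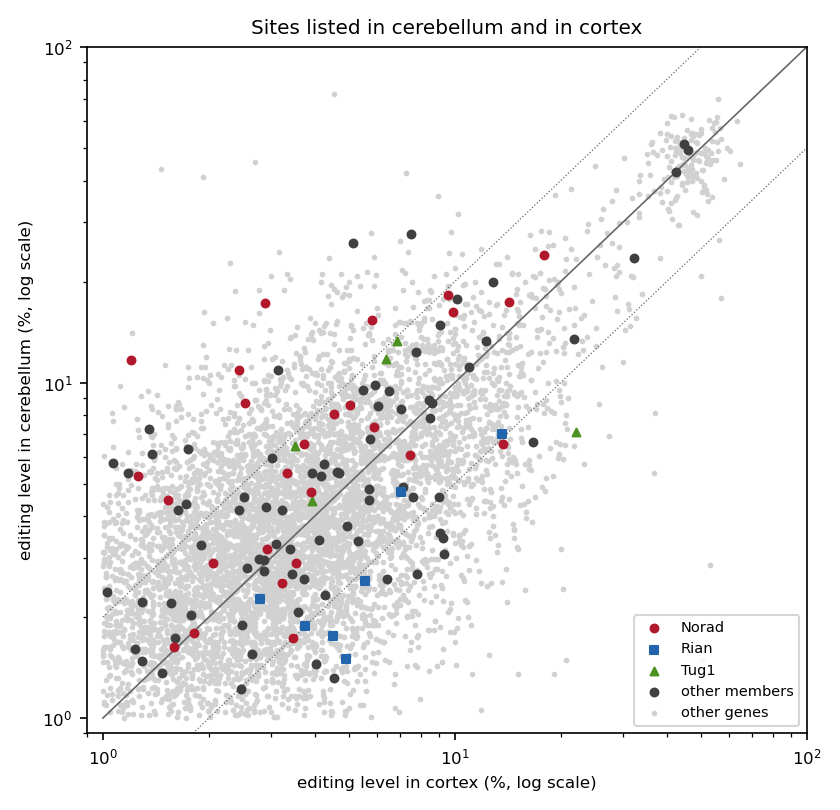
Editing level in cerebellum (vertical axis) against cortex (horizontal axis), both in percent on log scales, at positions listed in both; grey points are other genes, dark points other systematically named and long noncoding genes, red circles Norad, blue squares Rian and green triangles Tug1. The solid line marks equal levels and the dotted lines 2-fold differences: 20 of 26 Norad points lie above the line and 7 of 7 Rian points below it.

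A level of 35% or more in any list was reached at 8 sites in 8 of these genes, 2.82% of the 284 such sites over all genes, close to their 2.12% share of all sites. Gm48342, without a RefSeq match, had 49.4% in cerebellum, 42.5% in hippocampus and 46.1% in cortex, and D430041D05Rik, 24990 nt from its 3′ end, 42.4%, 34.1% and 42.6%. Zfhx2os, the antisense RNA of the transcription factor gene Zfhx2, had 51.4% in cerebellum and 44.9% in cortex. The lncRNA 4930579G18Rik had 49.1% in hippocampus and 50% in cortex. The other 4 were in 1 list each: Gm33320 (60%, cerebellum), 1810013L24Rik (36.1%, cerebellum), 5031425E22Rik (41.8%, cortex) and B930095G15Rik (35.4%, cortex). Where such a site was in several lists, its levels were close, differing by at most 8.50 percentage points. Of the 8, 4 lie within the span of a protein-coding gene on the opposite strand, namely Zfhx2, Hmgcs1 (opposite Gm48342), Acin1 (opposite 4930579G18Rik) and Kmt2e (opposite 5031425E22Rik). Over all 550 sites, 15 in 11 genes lay in such a span. The same shares were not computed over all genes, so these counts are not shown to be particular to the genes described here. Genomic variants at the sites of 35% or more could not be looked up. Among sites below 35% in every list, the highest level was that of Gm20431, with 23.6%, 26.7% and 32.2%.

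The symbol of a row was not always the transcript that a reader would look for. Of the 35 genes without a RefSeq match, 22 had every site within the span of a protein-coding gene on the same strand, and for 11 of these the protein-coding gene had no site under its own symbol in any list. Examples are Gm50388 within B4gat1, a glucuronyltransferase gene, with 3 sites in cerebellum, 4 in hippocampus and 4 in cortex, Gm20431 within Ube2v1, a ubiquitin-conjugating enzyme variant, with 2, 1 and 2, and Gm45837 within Pde2a, a cyclic nucleotide phosphodiesterase, with 1, 2 and 2. Gm49394 within Igf2, insulin-like growth factor 2, had 1 site at 2.33% in cerebellum. For the other 11 the protein-coding gene was itself listed, as with Gm45208 within Praf2, 91 nt from the nearest Praf2 site. A further 4 lay in a span whose strand the tables did not give (among them Gm21988 in Rnasek, Gm45234 in Atn1 and Gm49980 in Pik3c3), 2 opposite one and 7 in none. The matched lncRNA Gm20716 likewise had all 5 sites in the same-strand span of Adnp, a chromatin regulator with no site of its own, and the lncRNA B930095G15Rik its 1 site in that of Farp1, which had 1 site in cortex. All 11 sites of Gm16286 lay in the span of Txnl4a, whose strand the tables did not give. Which of the overlapping transcripts carried the edited reads cannot be told apart from the lists.

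Distances of sites to 3′ ends were set beside those over all genes, without scaling to gene length. Of the 470 sites of matched genes, 443 fell inside the RefSeq span. Their median genomic distance to the 3′ end, introns included, was 1912 nt, against 1523 nt over all genes, with 2094.5 nt for the noncoding and 1553 nt for the protein-coding ones. Within 5 kb lay 351 of the 443 (79.2%), against 87.0%, and within 1 kb 35.9%, against 36.5%. The single gene 2900052N01Rik had 30 of its 33 positions between 5000 and 6500 nt, and the share without it was not computed. In a gene shorter than 5 kb, every site inside the span lies within 5 kb wherever it is. Relative to gene length the long noncoding RNAs differed. Median distances were 3390.5 nt in Norad (4917 nt long) and 5734 nt in Malat1 (6983 nt), toward the 5′ end. They were 1768.5 nt in Tug1 (9030 nt) and 743 nt in Rian (57772 nt), toward the 3′ end. Of the 27 sites outside, 19 were in A830036E02Rik and 6 in Cdr1os. For all 66 genes with a strand in the promoter table, the listed strand was that strand. Whether symbols were assigned by strand is not stated, so this agreement may follow from the naming of the rows.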

How the data were processed

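Poly(A) RNA of cerebellum, hippocampus and cortex was sequenced from 900 ng of total RNA per library with a directional kit, per the labels' protocols. STAR 2.7.5 and the build mm10 are named in the submitters' processing notes. Per the series design in the labels, APOBEC1-YTHmut libraries served as background in site calling. The site caller, its thresholds and the way of combining libraries were not stated (not given in the sources used here). The authors deposited 1 headerless list per region with position, symbol, strand and a fraction per site, printed here as percent. Its meaning as share of edited reads is an assumption. Depth is unknown, and the lowest level is 1%.

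The members and lists were chosen with earlier results of these data known. Members were matched to RefSeq GRCm38.p6 by symbol (77) or by a synonym at the same place (4). A site was shared when chromosome, position and strand were identical. Counts, medians with order-statistic intervals, shares with exact binomial intervals (95%) and log2 ratios were computed with Python 3.11.15, pandas 2.3.3, numpy 2.4.6, scipy 1.17.1 and drawn with matplotlib 3.10.9. The functions were tested on simulated lists. Named were all named lncRNAs and opposite-strand RNAs, every gene with 5 or more sites in a region, the 5 highest levels and the 3 genes with most sites in 1 region alone per region, and the 4 largest and smallest ratios per pair. The readable windows, the segments along transcripts and the genes picked as overlap examples were chosen after their values were seen.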

Additional observations from a re-analysis of the deposited data

How the results depend on the processing

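Of 81 recomputed values for 16 results, 51 stayed within their interval or, for counts, within 1.5 times; merging sites within 10 nt, counting sites within 10 nt as shared, leaving out sites at 35% or more, and 1 value a gene changed none beyond that. Scaling the lists to a common median turned the median log2 ratio to -0.016 for cerebellum over cortex and -0.10 for cerebellum over hippocampus. Keeping levels of at least 10% gave -0.12 for hippocampus over cortex, 26, 28 and 42 sites, 14, 15 and 21 genes, medians of 17.3%, 13.3% and 13.96%, 7.69%, 14.3% and 19.0% of sites within 50 nt of another (cerebellum, hippocampus, cortex each), and 10.9% of sites in all 3 lists. Noncoding genes alone gave 85, 143 and 216 sites, 15, 15 and 28 genes, 63.5%, 60.1% and 62.5% within 50 nt, and 18.8% in all 3 lists. Over all genes the shares within 50 nt were 53.3%, 54.7% and 55.1%, and 19.0% of sites were in all 3 lists. At least 2 sites a gene left 24, 36 and 52 genes. Leaving out Norad, an alternative chosen after seeing the data, gave 11.7% in all 3 lists and median log2 ratios of 0.11 (cerebellum over cortex), -0.07 (hippocampus over cortex) and 0.03 (cerebellum over hippocampus), against 0.19, 0.02 and 0.16 with it. These smaller counts follow from using fewer sites or genes; the cause of the other shifts was not tested. No paired analysis was possible because the lists hold no value per animal, and for the same reason no replicate could be left out. Without depth, no error of a single level is known.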
